A study of Mus musculus with 3 samples.

Results

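CTCF occupancy was examined at the genes of chemokines and of their receptors in LSK cells of mouse bone marrow. The genes were taken by symbol: every protein-coding gene of GENCODE M21 on Chromosomes 1 to 19 named Ccl, Cxcl, Ccr or Cxcr with digits and at most 1 letter. This rule found 50 of 20807 protein-coding genes, on 10 chromosomes: 23 Ccl and 12 Cxcl genes for ligands, and 10 Ccr and 5 Cxcr genes for receptors. The rule did not use the CTCF data.

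Chemokines are small secreted proteins that steer the migration of leukocytes, and they act through receptors coupled to G proteins. Most of their genes arose by tandem duplication and stand in clusters. Cxcl12 from stromal cells and its receptor Cxcr4 on stem and progenitor cells retain those cells in the bone marrow. CTCF is a DNA-binding protein with zinc fingers that takes part in chromatin loops, and the sites at the ends of a loop often have motifs that point toward each other.

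The study combined epigenomic and transcriptomic data of mouse blood cells. Used here was its CTCF ChIP-seq of 1 library of LSK cells from the bone marrow of adult C57BL6 mice, sorted as negative for the lineage markers CD4, CD8, IL7Ra, CD11b, Ly6g, CD45R and Ter119 and positive for cKit and Sca1. LSK is a mixed population of stem and multipotent progenitor cells, so a peak may come from some of its cells only. The peak list holds 18945 peaks, 18697 of them on Chromosomes 1 to 19. There is no replicate, so no value has a replicate error and no difference was tested. The intervals given are 95% Wilson intervals that cover counting error only. Read counts are not in the list, and the depth behind a peak cannot be read from it. Each peak is described by its fold enrichment, the ratio of reads in the peak to the background, and by the −log10 p-value of the peak caller. RNA was not analyzed here, so that whether a gene was expressed in these cells was not tested.

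CTCF peaks stood near most of the genes, but seldom at their starts. The transcription start site (TSS) was taken as the 5′ end of the gene record, and distances run to the nearest edge of a peak. Other annotated transcript starts, at which a gene may also have a peak, were not used for the counts that follow. A peak within 50 kb was found for 42 of the 50 genes, which is 84.0% (71.5% to 91.7%), where 69.7% of all protein-coding genes had one. Within 10 kb there were 20 genes, 40.0% (27.6% to 53.8%) beside 30.4% of all genes. Over the TSS itself there was 1 gene, Cxcr4, which is 2.0% (0.354% to 10.5%) beside 4.43% of all genes, and no other gene joined it within 1 kb, where 8.92% of all genes had a peak. All 50 genes had a peak within 100 kb, beside 82.7% of all genes. The median distance to the nearest peak was 16472 bp for the 50 genes and 22788 bp for all genes. Neighboring genes share peaks, so the genes are not independent of each other: the 42 genes had 66 distinct peaks among them.

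**Figure D1:**
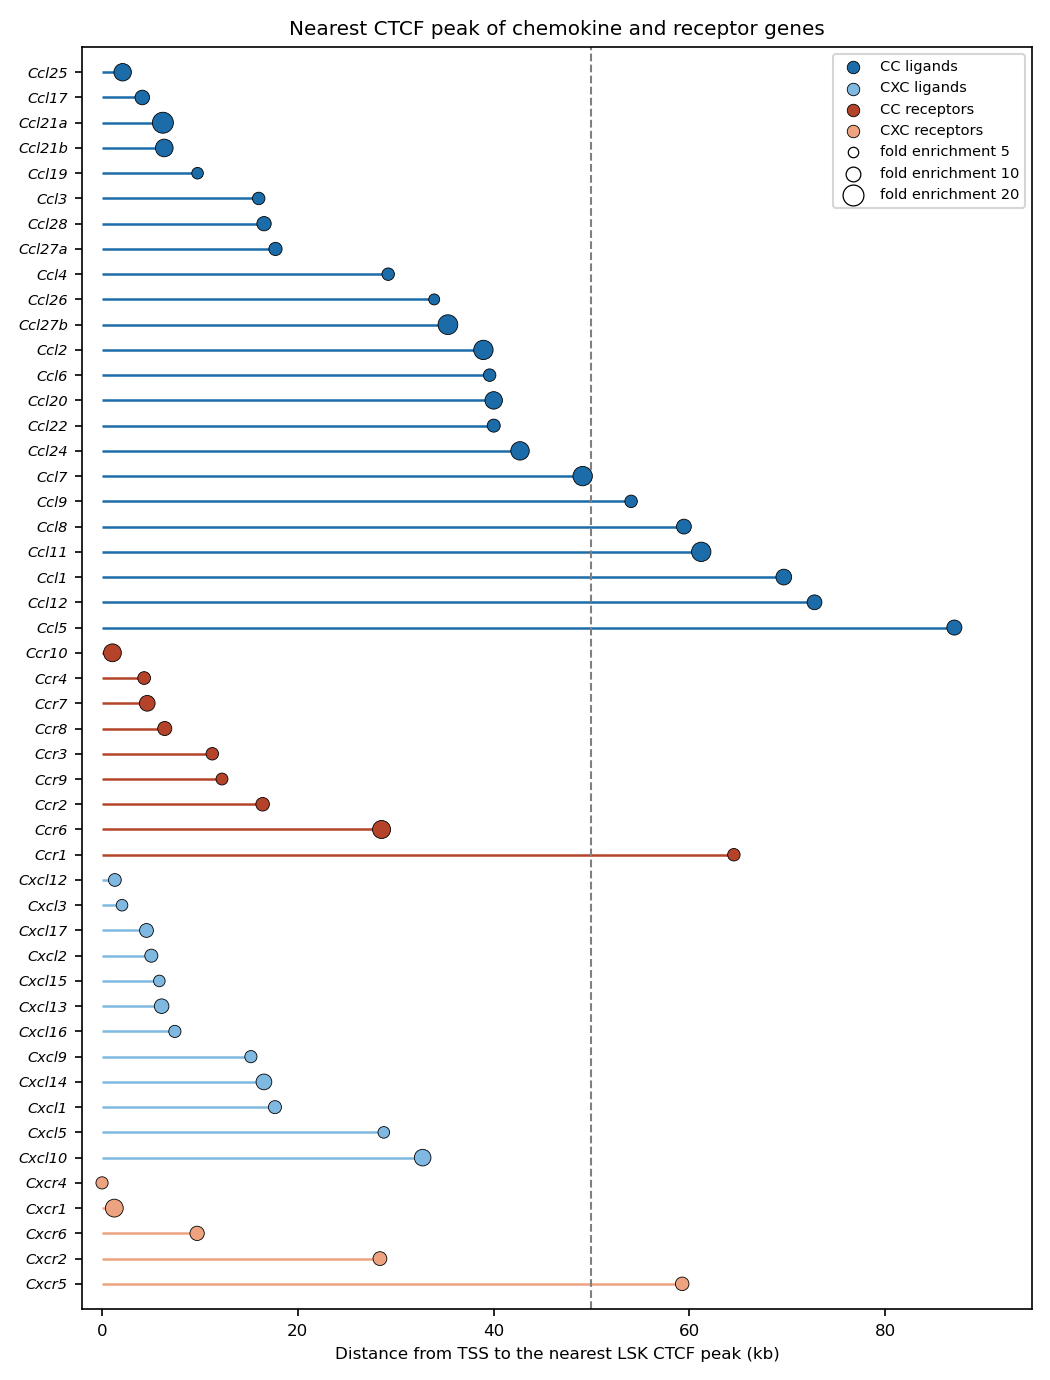
Distance in kb (x axis) from the TSS of 49 of the genes to the nearest LSK CTCF peak, sorted within the 4 families, with the area of a point giving the fold enrichment of that peak and the dashed line at 50 kb. Cxcr4 stands at 0, and 8 genes lie to the right of the line, 6 of them CC ligands, with Ccl5 farthest at 87069 bp.

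The excess over all genes was not seen with the stronger peaks alone. When the list was restricted to the 50% of peaks with the highest −log10 p-value, a peak within 50 kb was kept by 23 of the 50, or 46.0%, beside 51.3% of all genes. No interval was computed for the shares under this restriction, and no difference was tested. Within 10 kb, 7 of the 50 genes kept one, or 14.0%, beside 18.0% of all genes. Cxcr4, Cxcl12 and Cxcl3, which were among the genes with the closest peaks, had no peak of this set within 50 kb.

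**Figure D2:**
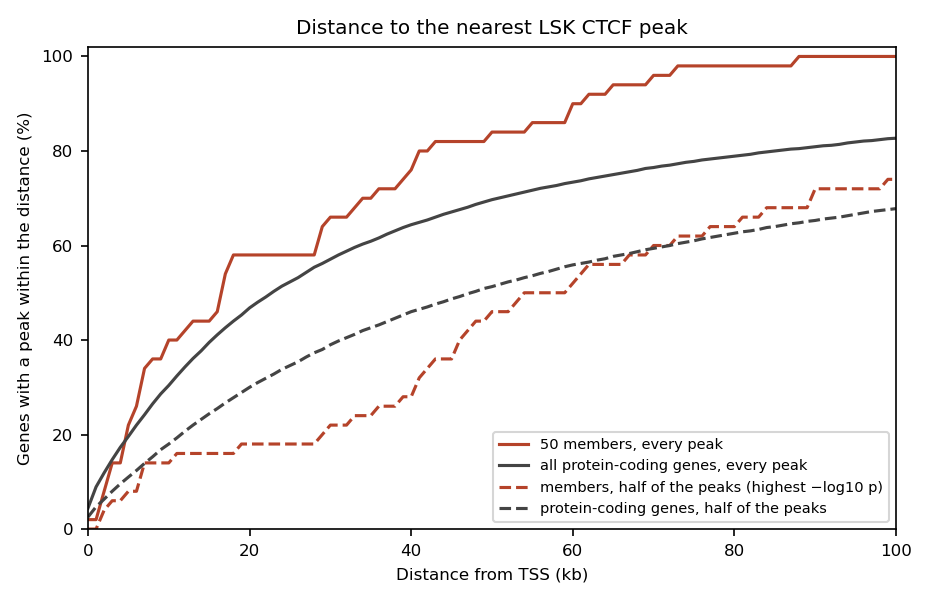
Share of genes in percent (y axis) with a CTCF peak within a given distance of the TSS in kb (x axis), for the 50 chemokine and receptor genes (red) and all 20807 protein-coding genes (gray), over every peak (solid) and over the 50% of peaks with the highest −log10 p-value (dashed). At 50 kb the solid lines stand at 84.0% and 69.7%, and the dashed lines at 46.0% and 51.3%.

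The families are given beside 69.7% of all protein-coding genes with a peak within 50 kb and their median distance of 22788 bp. All 12 Cxcl genes had a peak within 50 kb, at a median distance of 6762.5 bp. Of the 23 Ccl genes 17 had one, or 73.9%, with a median of 38958 bp. Of the 10 Ccr genes 9 had one, at a median of 8835 bp, and of the 5 Cxcr genes 4, at a median of 9713 bp. By the medians, CC ligands stood farthest from their peaks, but the ranges of the families overlapped. By role, 29 of 35 ligands and 13 of 15 receptors had a peak within 50 kb.

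Cxcr4, the receptor of Cxcl12, lies on the minus strand of Chromosome 1 from 128588199 to 128592293. Its peak, chr1:128592278-128592985, covers the TSS and extends upstream. The peak was weak: its reads were 6.85-fold over background, and its −log10 p-value was 6.048. Of all autosomal peaks 11.4% had a lower fold enrichment, and of the 879 peaks over a protein-coding TSS, whose median was 11.42, 7.17% did. It was also isolated. The next peak toward lower coordinates was 223163 bp away in an intron of Dars, with a fold enrichment of 10.77, and the next on the other side was 231192 bp away, with 6.2. Only 3.48% of autosomal peaks stood so far from any other, where the median distance was 17985 bp. Apart from Dars, whose record holds the first of these neighbors, Cxcr4 was the only protein-coding gene counted between them.

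The sequence under this peak is shown because no other of the 50 genes had a peak over the 5′ end of its gene record. The core motif of CTCF, 12 bases long, was searched on both strands. In RefSeq sequence of GRCm38.p6, the 250 bases before the annotated start of Cxcr4, chr1:128592300-128592549 on the minus strand, all lie in the peak and hold no core motif, also with 1 mismatch allowed.
Cxcr4 promoter: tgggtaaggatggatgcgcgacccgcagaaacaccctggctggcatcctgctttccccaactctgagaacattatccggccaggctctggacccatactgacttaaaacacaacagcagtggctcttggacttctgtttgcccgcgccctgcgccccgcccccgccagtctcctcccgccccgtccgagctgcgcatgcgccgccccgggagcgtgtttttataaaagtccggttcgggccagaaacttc
The nearest match stood 345 bp upstream of the TSS, at chr1:128592638-128592649 on the plus strand, against the direction of the gene, and had 1 mismatch to the motif. It is printed with 9 bases on each side, in the direction of the motif and with the motif in capitals, as are all sites that follow.
Cxcr4 peak: cctgcctaaCCAGTAGGCGGCaatgttgga
A match in these letters is a description and not a measured site. Over windows from 250 bases before to 50 bases after a start, RefSeq gave 43 windows for 36 of the 50 genes. None held the exact motif, beside 1.43% of all autosomal windows. With 1 mismatch, windows of Ccl19, Ccr9 and Ccr6 did, beside 12.3% of all autosomal windows. The former are genes and the latter is a share of windows, and no difference from the background was tested.

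Cxcl12, the ligand of Cxcr4, lies on the plus strand of Chromosome 6 from 117168535 to 117181367. Unlike its receptor it had no peak at the TSS but a peak on each side of it. The upstream peak, chr6:117166718-117167224, ended 1311 bp before the TSS and had a fold enrichment of 7.5. The other, chr6:117173675-117174372, lay in an exon with 6.2. The next peaks stood farther out, chr6:117080818-117081463 with 5.87 and chr6:117249192-117249805 with 10.44. All 4 held an exact core motif on the plus strand, the strand of the gene, so that this gene stood in a row of motifs of 1 direction.
Cxcl12, far upstream: tcatatctcCCGCTAGGGGGCgccaacagc
Cxcl12, upstream: gagataagaCCACCAGAGGGCgccggagcc
Cxcl12, exon: agggcttgtCCTGCAGGGGGCgctcctcga
Cxcl12, downstream: ctgccagtgCCAGCAGAGGGCgctatccag

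**Figure D3:**
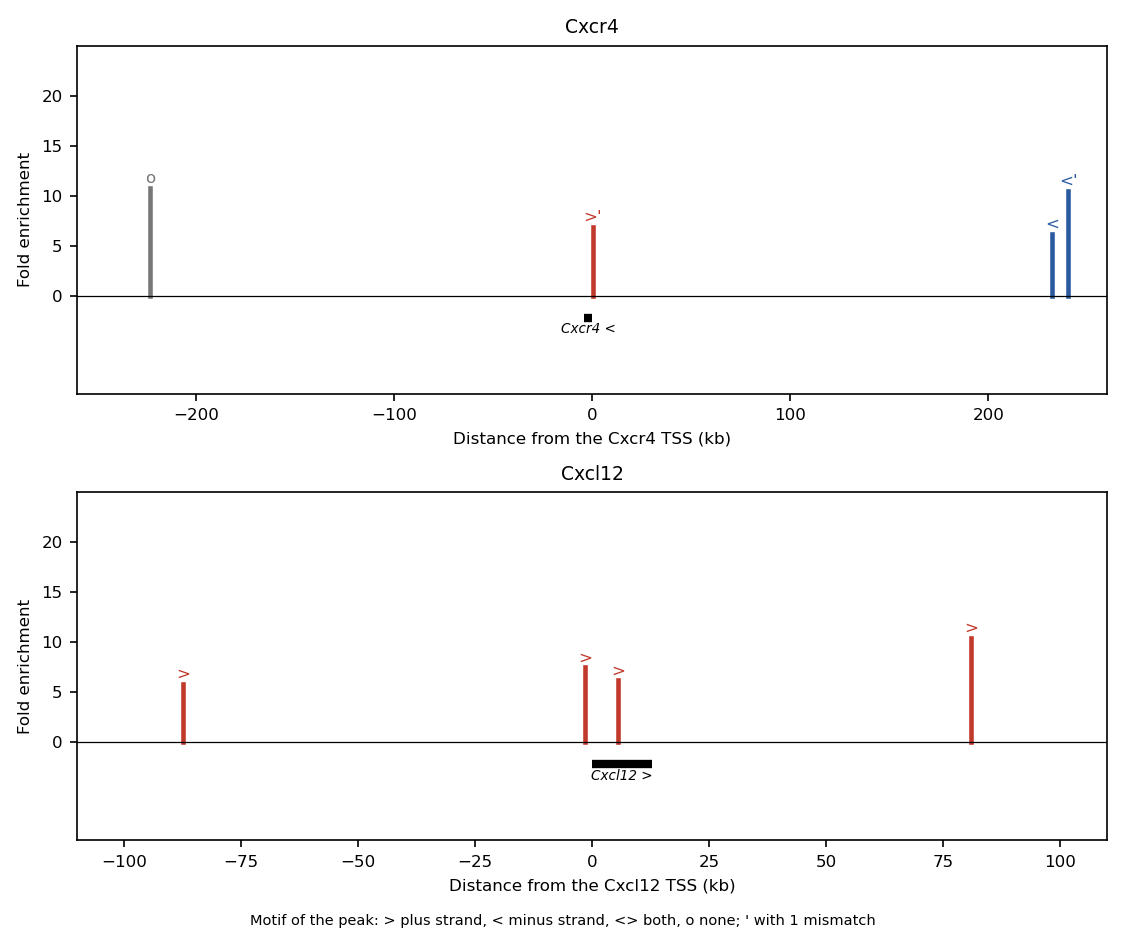
CTCF peaks around Cxcr4 (top) and Cxcl12 (bottom), with distance from the TSS in kb (x axis) and fold enrichment (y axis), colored and marked by motif direction (red plus, blue minus, gray none), with the gene as a black bar. Cxcr4 stands alone with its peak of 6.85, and the 4 peaks around Cxcl12, from 5.87 to 10.44, all carry a plus-strand motif.

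Genes whose TSSs followed each other within 500 kb were joined into a locus, which gave 24 loci. Of these 15 hold 1 gene and 9 hold several, with 35 genes in all. In 23 of the 24 loci at least 1 gene had a peak within 50 kb. The exception was Cxcr5. Of the 26 pairs of neighboring genes in a locus, 10 had a peak between their TSSs and 16 had none. This share of 38.5% stood beside 45.3% for all neighboring protein-coding genes within 500 kb, at a median distance of 42332 bp for these pairs and 36274.5 bp for all. In the middle range of distances, from 13617.75 to 92524.75 bp, 5 of 12 pairs had a peak between them, beside 45.7% of all. These shares are near the background. Around a TSS without a peak over it, the interval between the nearest peaks had a median of 120224 bp for the chemokine and receptor genes. For all protein-coding genes this median was 124829.5 bp.

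The largest group in 1 interval without a peak was a set of CC ligands on Chromosome 11. Ccl2, Ccl7, Ccl12 and Ccl8, which attract monocytes, and Ccl11, an eotaxin that attracts eosinophils, all lie on the plus strand in 1 interval of 178013 bp without a peak. The peak before Ccl2, chr11:81996113-81996613, was 38958 bp from its TSS. It was 17.29-fold enriched (−log10 p-value 35.917). The peak behind Ccl8, chr11:82174627-82175425, was 59442 bp from its TSS with 10.12. Both held an exact motif, and the motifs pointed toward each other across the 5 genes.
Ccl2 side, chr11:81996346-81996375, plus strand: ctatccaggCCACCAGGGGGCagcaaggcc
Ccl8 side, chr11:82174955-82174984, minus strand: agactgcagCCACTAGAGGGCagggcactt
Within this interval Ccl2 and Ccl7 were inside the limit of 50 kb, Ccl7 at 49099 bp as the gene nearest to it. Ccl11 (61210 bp), Ccl12 (72782 bp) and Ccl8 (59442 bp) were outside. Just outside the limit over all genes was Ccl9 with 54046 bp.

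Ccl1, the ligand of Ccr8, closes this locus on the other strand. Its gene record is 129034 bp long, since it begins at a distant transcript start, and from there the nearest peak, chr11:82235318-82236046, was 69644 bp away. That peak lies in an intron of the record, with a fold enrichment of 11.42 and an exact motif on the plus strand. Measured from every annotated transcript start of Ccl1, the smallest distance to a peak was 4387 bp, to the peak behind Ccl8, which stands between Ccl8 and the short transcripts of Ccl1.

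The other cluster of CC ligands on Chromosome 11 held the gene farthest from a peak, Ccl5. Ccl5, which attracts T cells, and Ccl9 and Ccl6, which attract myeloid cells, share an interval of 189232 bp without a peak. Ccl5 was 87069 bp from the nearest one, chr11:83442769-83443449 in an exon of Mmp28, which had a fold enrichment of 10.44 and no motif with up to 1 mismatch. Next to that peak stood a stronger one, chr11:83440185-83441280, with 15.66 and an exact plus-strand motif. On the other side a weak peak without a motif, chr11:83632682-83633352 with 7.18, divided these genes from Ccl3 and Ccl4, the macrophage inflammatory proteins. Its −log10 p-value of 5.721 was near the lowest of the list. It was the only peak within 50 kb of any of these 5 genes, at 39595 bp from Ccl6, 16003 bp from Ccl3 and 29232 bp from Ccl4. Behind Ccl4, chr11:83739048-83739793 had 12.14 and an exact motif on the minus strand.
Before Ccl5, chr11:83440492-83440521, plus strand: gtccagcagCCAGCAGGTGGCgctgctgcg
Behind Ccl4, chr11:83739428-83739457, minus strand: cagtcacatCCACCAGGTGGCagcatgaac
The pair printed is not the pair of nearest peaks, since that on the side of Ccl5 had no motif, and the locus is not counted among those with facing motifs.

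**Figure D4:**
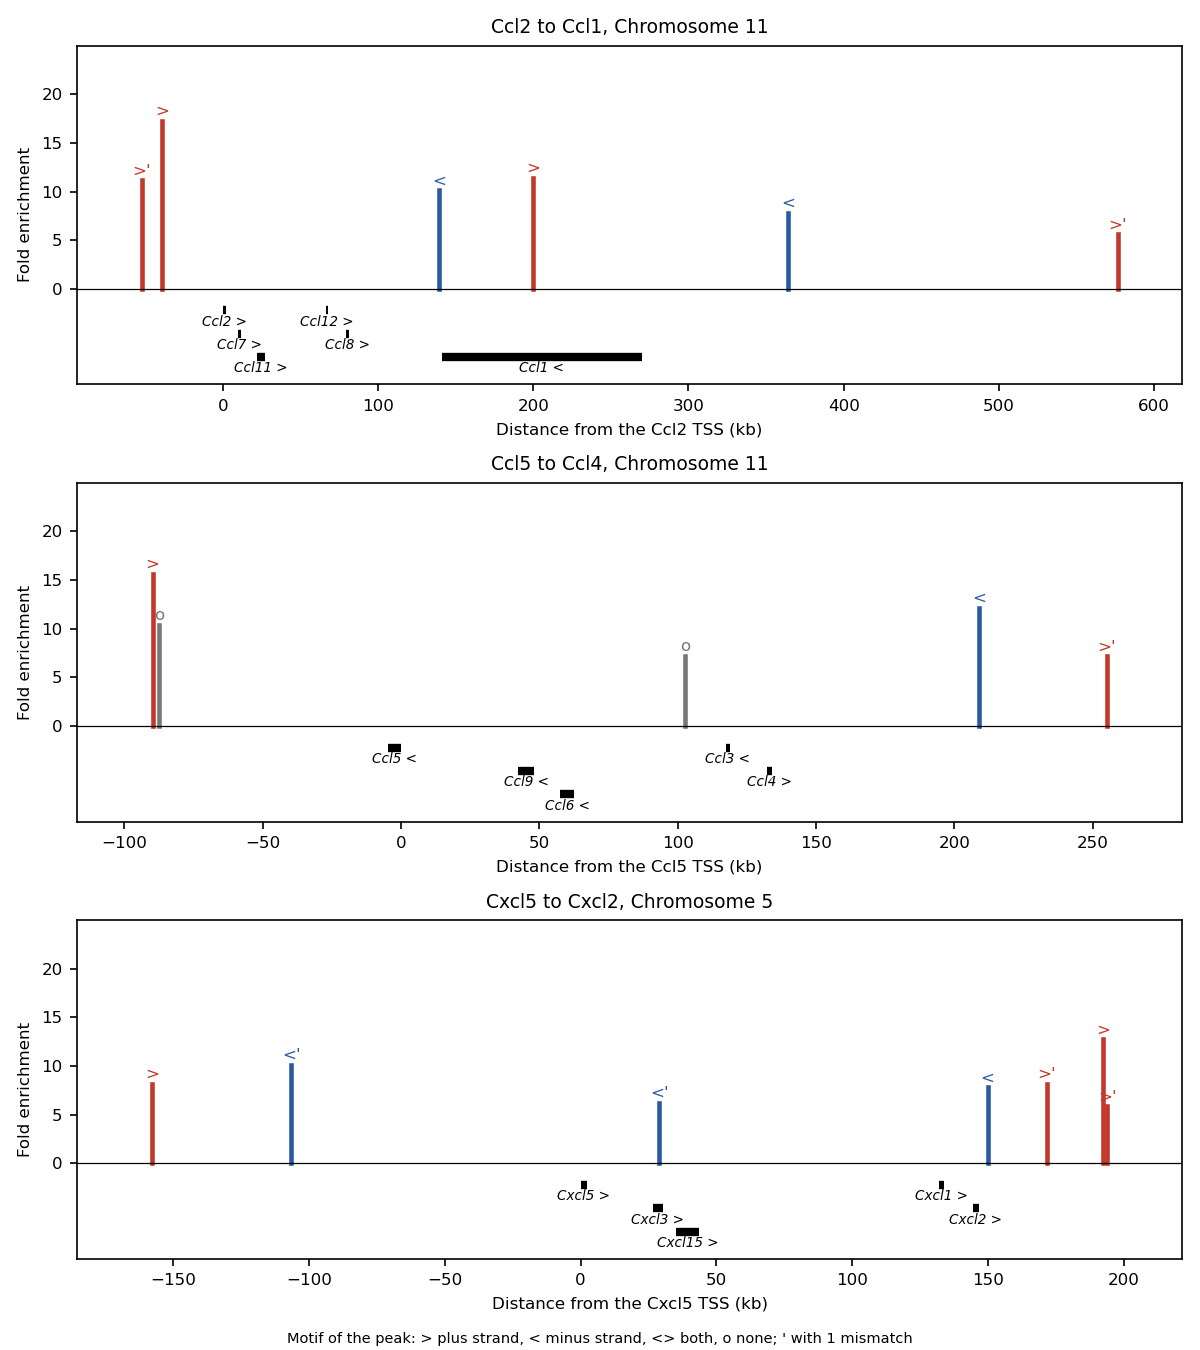
CTCF peaks in 3 clusters of chemokine genes, with distance from the TSS of the first gene in kb (x axis) and fold enrichment (y axis), colored and marked by motif direction (red plus, blue minus, gray none) with gene records as black bars. Every peak from the second to the left to the second to the right of each cluster is drawn, and Ccl2, Ccl7, Ccl11, Ccl12 and Ccl8 stand between peaks of 17.29 and 10.12 whose motifs face each other.

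Ccl19 and Ccl21, the ligands of Ccr7, and Ccl27, a ligand of Ccr10, lie in duplicated sequence on Chromosome 4, in a locus of 1004527 bp. It held 9 peaks, and in all 9 more than 50% of the 31-base windows occurred more than once in the genome, from 81.5% to 100%. Over all peaks within 50 kb of the 50 genes this was so for 6 of 66, beside 2.63% of the other autosomal peaks. The authors kept reads that mapped to several places, so which of several identical copies was bound cannot be told apart. The peaks form a repeated unit. Wide peaks with fold enrichments of 18.6, 17.95, 14.36 and 17.95 began at 41910066, 42121151, 42262125 and 42618510. They were 97.8% to 100% identical and held the same 2 sites, A on the plus and B on the minus strand, which point toward each other.
Site A: ctggctccgCCACTAGGGGGCagcagcatc
Site B: actctccggCCTGCAGGGGGCgcgccgagc
The starts of the 30-base windows printed were 660 bp apart in each of these peaks.

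Of the 5 places with both sites, 4 stood 6217 to 6358 bp from the TSS of Ccl21a, Ccl21b, Gm13304 or Gm10591. For the place at 41910066, the closest of the 50 genes was Ccl27a, 135819 bp away. The 14.36 peak stood 6358 bp downstream of the TSS of Ccl21b. At Ccl21a, which is on the opposite strand, the unit was turned around and split into separate peaks, chr4:42766335-42767025 with site B and a fold enrichment of 6.2, and chr4:42767037-42767776 with site A and 20.23, the latter 6217 bp downstream of the TSS. There the windows were 673 bp apart. Gm13304 and Gm10591, genes outside the symbol rule, stood 6334 and 6315 bp from the peaks that begin at 42121151 and 42618510. In the whole genome the window of site A occurred 5 times and that of site B 8 times, all on Chromosome 4, and each of these occurrences lay in a CTCF peak. The 3 occurrences of site B without site A beside it lay in weaker peaks, with 9.46, 5.87 and 5.22.

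The remaining genes of this locus share those peaks. Ccl27b was 35333 bp from the peak at 42618510, and Ccl19 was 9758 bp from the weaker peak at Ccl21a. Ccl27a was 17718 bp from a peak with 8.07 in nonrepeated sequence, chr4:41755931-41756529. Without peaks in which over 50% of the 31-base windows were repeated, a choice made after seeing the data, the count within 50 kb was 38 of 50, or 76.0%, beside 68.0% of all genes under the same restriction.

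**Figure D5:**
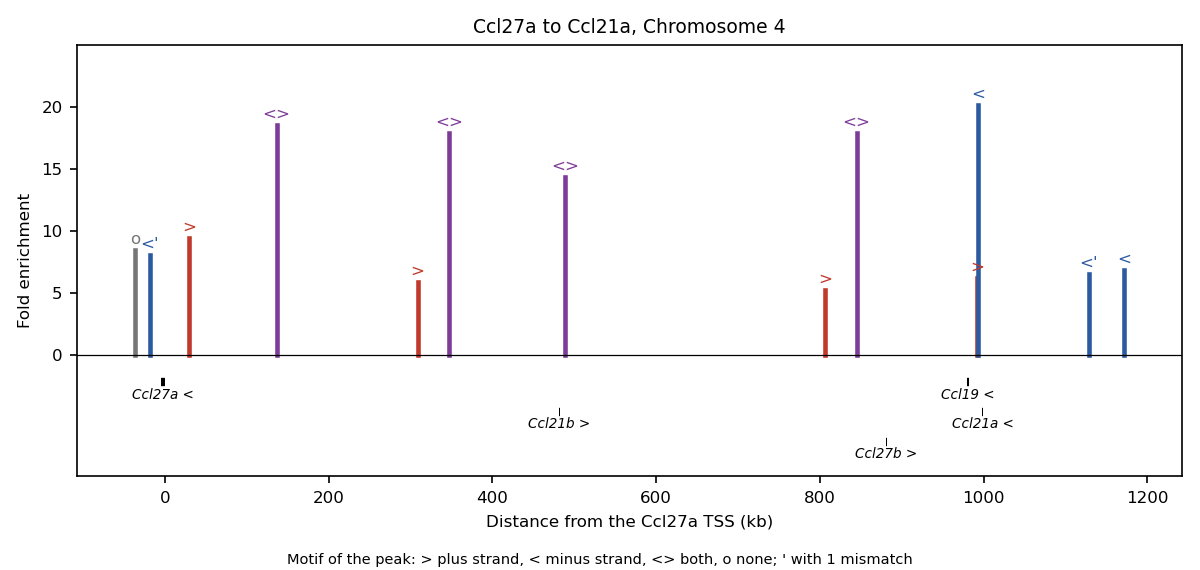
CTCF peaks from Ccl27a to Ccl21a on Chromosome 4, with distance from the Ccl27a TSS in kb (x axis) and fold enrichment (y axis), colored and marked by motif direction (red plus, blue minus, purple both, gray none), with gene records as black bars. The 4 purple bars, from 14.36 to 18.6, are near-identical peaks with sites A and B, and the tall blue bar of 20.23 with a low red bar of 6.2 beside it is the split unit at Ccl21a.

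Among the other CC ligands, Ccl25, which draws T cell precursors to the thymus through Ccr9, had the closest peak, 2106 bp upstream in an intron of Elavl1, with a fold enrichment of 14.03 and an exact motif. Ccl22 and Ccl17, both ligands of Ccr4, had 6 peaks within 50 kb. Of these, 5 had a motif with up to 1 mismatch and all 5 pointed to the plus strand, the strand of both genes. The strongest, chr8:94856974-94857853 with 20.23, was 46521 bp from Ccl17, and a weak one of 7.83 lay between the genes. The eotaxins Ccl26 and Ccl24, neighbors on Chromosome 5, stood in an interval of 86110 bp with motifs that pointed away from the genes, with fold enrichments of 5.55 on the side of Ccl26 and 15.63 on that of Ccl24. Ccl20, the ligand of Ccr6, had 1 peak at 40008 bp with 14.03. Ccl28, a mucosal ligand of Ccr10, had a peak in an intron with 9.46 and 1 of 15.08 behind the gene, at 45252 bp, where 94.7% of the 31-base windows were repeated.

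Of the 12 CXC ligands, 10 had a nearest peak with a fold enrichment below the autosomal median of 10.12, and the exceptions were Cxcl10 and Cxcl14. Some of these genes share a nearest peak. The share over the nearest peaks of all protein-coding genes was not computed. Of the autosomal peaks not near the 50 genes, 49.4% were above this median. Cxcl5, Cxcl3, Cxcl1 and Cxcl2, which attract neutrophils, and Cxcl15, which is made in the lung, lie on the plus strand of Chromosome 5. A peak of 6.2 in an exon of Cxcl3, chr5:90788145-90788680, was 2042 bp from the TSS of Cxcl3 and the nearest peak also for Cxcl5 (28785 bp) and Cxcl15 (5854 bp). The other peak beside this cluster, chr5:90908905-90909535 with 7.83, was 5034 bp from Cxcl2 and 17664 bp from Cxcl1. Cxcl15, Cxcl1 and Cxcl2 lay in 1 interval of 120224 bp between these peaks. The strongest peak within 50 kb was chr5:90951260-90952075 in an intron of Mthfd2l, with 12.73, and was 47389 bp from Cxcl2.

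Cxcl9 and Cxcl10, induced by interferon and both ligands of Cxcr3, shared an interval of 68768 bp. The peak beside Cxcl9, 15207 bp from its TSS, had a fold enrichment of 6.85, and the peak beyond Cxcl10, 32752 bp from its TSS in an intron of Art3, had 12.73. Their motifs faced each other. That beside Cxcl9 had 1 mismatch and the other none.
Cxcl9 side, chr5:92312499-92312528, plus strand: ttaaagtcgCCACTAGGGGGAgcgcctgct
Cxcl10 side, chr5:92381960-92381989, minus strand: tgccaatgaCCACCAGAGGGCagcaaaaga
A peak of 13.7 followed 49110 bp from Cxcl10. Of the single CXC ligands, Cxcl13, the ligand of Cxcr5 that organizes B cell follicles, had 2 peaks, with 9.79 at 6086 bp and 6.2 at 13767 bp. Cxcl16, the ligand of Cxcr6, had 3, of which the nearest was 7439 bp away with 6.85 and the strongest had 11.09. Cxcl17 had 1 of 8.81 at 4541 bp and 1 of 8.16 in an intron. Cxcl14 had 3, the strongest with 11.42 at 16539 bp.

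Of the receptors, Ccr10 and Cxcr1 came next to Cxcr4 in distance, with stronger peaks. The nearest peak of Ccr10, the receptor of Ccl27 and Ccl28, lay 1063 bp from the TSS, chr11:101173610-101174380, with a fold enrichment of 14.68 and an exact motif. Its midpoint lay in an exon where the records of Ccr10 and Cntnap1 overlap. Another peak, of 8.48 in an intron of Cntnap1, stood 1389 bp on the other side of the TSS, without a motif. Cxcr1 and Cxcr2, receptors of neutrophils, had no peak between them. The peak beside Cxcr1, chr1:74195884-74196538, was 1253 bp from its TSS with 14.68, and the peak on the side of Cxcr2, chr1:74125058-74125600, was 28389 bp from that gene with 8.81.
Ccr10 exon, chr11:101173976-101174005, minus strand: cgcttctggCCGCCAGGGGGCcagagcggc
Cxcr1 side, chr1:74196152-74196181, minus strand: cctcagaagCCAGCAGAGGGCatcagattt

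The receptor cluster on Chromosome 9 had only weak peaks. Ccr9, Cxcr6, Ccr1, Ccr3 and Ccr2 follow each other there, and their nearest peaks had fold enrichments from 6.53 to 9.46. The median of all other autosomal peaks was 10.12. Cxcr6, Ccr1 and Ccr3 lay in an interval of 236472 bp without a peak, in which Ccr1, a receptor of Ccl3 and Ccl5, was 64543 bp from the nearest. Ccr3, the eotaxin receptor, was 11263 bp from the peak that ends this interval (7.18), and Cxcr6 was 9713 bp from the one that begins it (9.46). Ccr9, the receptor of Ccl25, was 12253 bp from a peak of 6.53 in an intron of Slc6a20a. That distance runs from the start of a gene record 105892 bp long. The RefSeq promoter window of Ccr9, chr9:123766961-123767260, lies far inside this record and nearer to the peak of 9.46. Ccr2, the receptor of Ccl2, lay alone in an interval of 84474 bp between the peak of 7.18 and one of 8.48, chr9:124118355-124119098, which was 16405 bp from its TSS. Their motifs faced each other across the gene, with 1 mismatch in the former and none in the latter.

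The single receptor genes varied more. Ccr7, which guides cells to lymph nodes, had a peak of 11.42 in an intron, 4617 bp from the TSS, and 1 of 18.6 at 34091 bp. Ccr4 had both of its peaks in an intron of its gene record, with 7.5 at 4301 bp and 14.68 at 6137 bp. Measured from every annotated transcript start of Ccr4, the smallest distance to a peak was 1417 bp. The RefSeq promoter window of Ccr4, chr9:114496495-114496794, lies nearer to the peak of 14.68. Ccr8 had the most peaks of any of the 50 genes, 5 within 50 kb. By fold enrichment they included both the strongest and the weakest of the 66. By −log10 p-value, 43.141 and 7.055, these peaks were not the extremes of the set, which ran from 5.084 to 45.364. The strongest, chr9:120072944-120073682 with 22.84 and no motif with up to 1 mismatch, is 3065 bp from the TSS of Cx3cr1, the fractalkine receptor. The weakest, with 4.57, was 10371 bp from Ccr8. Ccr6 had 1 peak, with 15.01 at 28555 bp. Cxcr5, the receptor of Cxcl13, had none within 50 kb: the nearest, in an intron of Bcl9l with 8.48, was 59264 bp from the TSS. Its record too begins at a distant start, and the distance from the nearest of its transcript starts was 23808 bp. Counting every transcript start, also a choice made after seeing the data, brought the count from 42 to 44 genes with the addition of Ccl1 and Cxcr5, beside 74.1% of all genes. Measured from the whole gene record, the count was also 44, beside 77.6% of all genes.

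As a set, the 66 peaks had somewhat lower fold enrichments than other peaks. The median was 9.07, with an interquartile range of 7.5 to 14.03 and a whole range of 4.57 to 22.84. For the other 18631 autosomal peaks the median was 10.12, with an interquartile range of 7.83 to 13.38. Above the autosomal median of 10.12 were 25 of the 66, or 37.9%, beside 49.4% of the others. The median −log10 p-value was 10.026 beside 12.728. The ranges overlap widely. By their midpoints 38 of the 66 peaks were intergenic, 20 lay in introns and 8 in exons of protein-coding genes, and 9 lay in 1 of the 50 genes. The exact core motif was found in 27, or 40.9% (29.9% to 53.0%), beside 35.6% of the other peaks, and a motif with up to 1 mismatch in 55, or 83.3% (72.6% to 90.4%), beside 83.6%. These shares do not set the peaks of the chemokine and receptor genes apart.

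The direction of motifs was read at the nearest peaks to the left and right of each locus. Both had a single direction in 15 of the 24 loci. In 5 of these the motifs faced each other: Ccl2 to Ccl1, Cxcl9 to Cxcl10, Cxcl14, Ccr8 and the locus that begins with Ccr9. Over all genes taken 1 by 1, 27.2% of 12172 had facing motifs. In 2 loci, Ccr6 and Ccl26 to Ccl24, they pointed away from the genes, and in 8 they pointed the same way. With exact motifs only, both sides could be read in 4 loci and faced each other in 1.

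Other genes of chemokine signaling were taken from a list of 33. It holds G protein subunits, receptor kinases and arrestins, regulators of G protein signaling, effectors of migration, and proteases or alternative ligands. Of the 33 genes, 27, or 81.8%, had a peak within 50 kb, at a median distance of 16251 bp, and 12 had one within 10 kb. The shares of all protein-coding genes were 69.7% within 50 kb and 30.4% within 10 kb. Grk5, a kinase of activated receptors, had a peak over its TSS with a fold enrichment of 10.77, and Grk2, another such kinase, had a peak of 8.48 at 86 bp. Vav1, an exchange factor for Rac, had a peak of 19.49 at 1607 bp, and Gnai3, an inhibitory G protein subunit, one of 8.81 at 1629 bp. Among 12 chemokine and receptor genes left out by the symbol rule, the 50 kb window held a peak for 9 and the 10 kb window for 2, Cx3cr1 with 22.84 at 3065 bp and Ackr1, a receptor that binds chemokines without signaling, with 13.27 at 5583 bp.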

How the data were processed

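CTCF ChIP-seq was measured in 1 LSK library. Per the labels and the study's methods, the authors mapped reads to mm10 with Bowtie (1.0.0 in the submitters' processing notes, which also name bcl2fastq, and an older version in the methods), kept multiply mapping reads, removed ChrM and unplaced chromosomes, and called peaks with MACS. The MACS settings and control were not given in the sources used here, and neither input library (LSK or MEP) was analyzed. Per peak, the deposited list gives a fold enrichment (a linear ratio), a −log10 p-value and a q-value (false discovery rate). The authors' q-values were not used, since their scale is not stated. The list holds no read counts, so depth cannot be read from it. The paper states that its supplement gives the sequencing depth of each dataset, which was not used here.

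All further values were computed with pandas 2.3.3, numpy 2.4.6, pysam 0.24.0, scipy 1.17.1 and matplotlib 3.10.9 under Python 3.11.15. Start positions were raised by 1 to count from 1. Genes came from GENCODE M21 and sequence from GRCm38.p6, the assembly behind mm10. Loci joined TSSs within 500 kb. A peak lay between a pair of genes when its midpoint did. The motif was searched on both strands over whole peaks, and a peak had a direction when all its best matches lay on 1 strand. Values of 1 gene are not reported here, while counts over the 50 genes include it. No test was run, since there is 1 library. Shares stand beside those of all genes or peaks.

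The genes and lists were chosen with earlier results of these data known. By rule, full values were given for Cxcr4 and Cxcl12, for the strongest peak of each locus, for the 5 genes with the closest and the 5 with the farthest peak, for genes without a peak within 50 kb, and for up to 4 pathway genes. On simulated data, the distance was recovered for 200 of 200 genes and the motif in 1000 of 1000 sequences. Alternatives were fewer peaks, other distances, reference points, gene rules, linking, merging and motif settings.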

Additional observations from a re-analysis of the deposited data

How the results depend on the processing

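The results rest on 1 library, and the peak list has no values outside its peaks, so a gene without a peak is only a gene without a call. With the 50% of peaks with the highest −log10 p-value, 23 genes had a peak within 50 kb, there were 25 distinct peaks with a median fold enrichment of 14.68, the exact motif was in 56.0% of them, and 4 pairs of neighboring genes had a peak between them. Within 10 kb, 20 genes and 25 peaks remained in the count, and within 100 kb there were 118 peaks. With 1 mismatch the motif was in 83.3% of the peaks, and with exact motifs only 1 locus had facing motifs. The other 15 alternatives, such as the gene record, the peak midpoint, merged peaks, linking at 200 kb or 1 Mb and the wider gene rule (51 of 62 genes), moved a count by less than 1.5 times. No paired analysis was possible because 1 library was used and no test was run. Leaving out a replicate was likewise not possible.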
